A study of Gallus gallus with 2 samples.

Results

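Genes of B cell receptor signalling were read on expression arrays of DT40, a chicken B cell line. The list held 10 genes, namely the kinases LYN, SYK and BTK, the adaptors BLNK, PIK3AP1 and GRB2, the phospholipase PLCG2, the negative regulators INPP5D and CBL, and JCHAIN, the joining chain of secreted immunoglobulins. A probe was assigned to a gene where its RefSeq accession, without the version, mapped to that gene's symbol in a chicken RefSeq table of assembly GRCg7b. This gave 15 probes for 7 of the 10 genes, out of 11935 named probes for 5382 named genes and 43603 probes in all. No probe was named for BLNK, PLCG2 or INPP5D, which were not analysed here.

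When the receptor binds antigen, LYN, a Src family kinase, phosphorylates the tails of its signalling chains, and SYK docks there and becomes active. SYK phosphorylates the scaffold BLNK, which brings BTK to PLCG2, so that calcium is released and protein kinase C, NF-kB and MAP kinase are switched on. DT40 is the line in which several of these steps were worked out, by deleting the genes one at a time.

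Both cultures were DT40 cells with a double knockout of the histone variant H2A.Z, which some nucleosomes carry instead of H2A. The R80C culture stably expressed FLAG-H2A.Z-R80C, a FLAG-tagged, cancer-associated mutant with cysteine in place of an arginine, and the H2A.Z.1 culture stably expressed FLAG-H2A.Z.1. Neither received tetracycline, and both grew in the same medium with fetal bovine and chicken serum. The sources used here do not say whether each line was 1 clone. There was 1 array per group, on the same slide and from the same scan, so no test was possible, no p-value is given, and every difference below describes these 2 arrays. In RNA of whole cultures, fewer cells that express a gene and less of its RNA per cell cannot be told apart.

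Signal is the background-subtracted, detrended intensity given by the scanner software. Differences are R80C minus H2A.Z.1 in log2, after each array was divided by its 75th percentile (1044 in R80C cells and 1066 in H2A.Z.1 cells). A probe counted as measured where its spots were flagged well above background on both arrays and none was saturated or an outlier. On the R80C array 71.5% of spots other than controls passed that flag, and on the H2A.Z.1 array 70.1%, with a lowest such signal of 5.81 and 6.95. Over the 4326 named genes measured on both arrays the median difference was 0.013 and the SD 0.20. The SD was 0.053 between repeated spots of 40 probes and 0.094 between probes of the same gene. Both are spreads within the same hybridisations, so they hold no variation between cultures, labellings or arrays. They also cover other sets of probes and genes than the SD of 0.20. Whether the SD of 0.20 exceeds technical spread was not tested, as no group had a repeated array.

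The B cell label was checked first. Of 16 listed B cell genes 12 had a named probe, and all 12 were measured on both arrays. CD79B, a signalling chain of the receptor itself, read 106246 and 9347 at its 2 probes in R80C cells, against 109554 and 9408 in H2A.Z.1 cells. PAX5, the transcription factor that holds B cell identity, read 193.8 in R80C cells and 200.9 in H2A.Z.1 cells. CD79B differed by 0.0037 and PAX5 by -0.022, so both were present at near equal signal. H2AFZ, a gene of the deleted histone variant, read 1475 and 932.7 in R80C cells, against 1537 and 883.1 in H2A.Z.1 cells. Where these probes lie relative to the deletion and the transgene is unknown here, so they checked neither.

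All 15 probes of the 7 genes, JCHAIN included, lay well above background on both arrays. None of the 7 genes differed by 1.5-fold, a size that 1.94% of all named genes measured on both arrays reached (0.67% higher and 1.27% lower in R80C cells). At 1.2-fold there was 1 gene of 7, JCHAIN, lower in R80C cells, where 6.01% of all named genes were that much lower, 4.05% that much higher and 10.1% either. The median over the 7 genes was -0.028, against 0.013 over all named genes. Without JCHAIN, which is not a signalling gene, the median over the other 6 was 0.0076. The median size of difference of the 7 was 0.073 with the sign dropped, against 0.073 over all named genes. Of the 7, 3 lay above 0 and 4 below, and of the 15 probes 8 lay above and 7 below. Over all named genes 55.5% lay above 0 and 44.5% below.

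**Figure D1:**
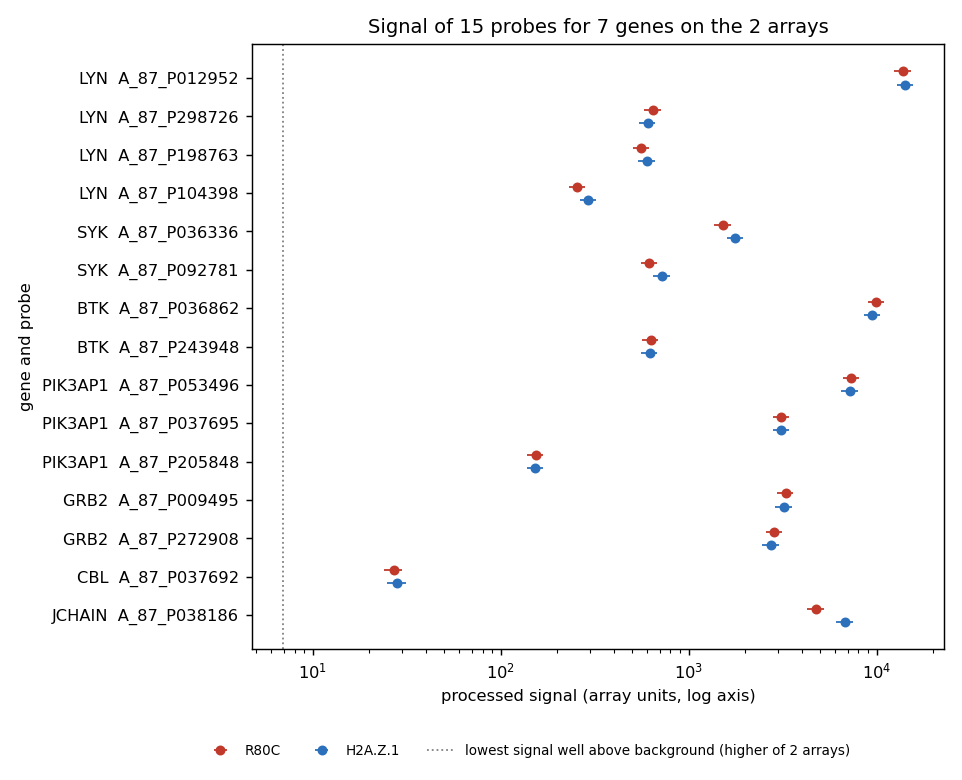
Processed signal (log axis) of each of the 15 probes in R80C cells (red, upper point) and H2A.Z.1 cells (blue, lower point), with bars for the error that the scanner software assigns to the spot. The 2 points nearly coincide for most probes, both SYK probes sit slightly left in R80C cells, and JCHAIN shows the widest gap, at 4746 in R80C cells and 6780 in H2A.Z.1 cells.

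The kinases came first. LYN was read by 4 probes. The brightest, A_87_P012952, read 13816 in R80C cells and 14178 in H2A.Z.1 cells, a difference of -0.0068. A second, A_87_P298726, read 644.5 in R80C cells and 604.7 in H2A.Z.1 cells, a difference of 0.12. The remaining pair leaned the other way. A_87_P104398 read 255.6 in R80C cells and 292.9 in H2A.Z.1 cells (-0.17), and A_87_P198763 read 560.5 in R80C cells and 600 in H2A.Z.1 cells (-0.068). The local background of A_87_P198763 was flagged as an outlier on both arrays. The mean for LYN was -0.030, and its sign turned under 2 of 11 processing alternatives (array median scaling and raw signal minus local background). The spread between its probes was wide beside a set of brighter genes, though many of these read well above LYN. Its SD between probes of 0.12 was reached by 39 (2.43%) of 1604 named genes with several probes whose mean scaled signal reached the median of measured genes.

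SYK, the kinase that carries the signal onward from the receptor chains, was lower in R80C cells at both of its probes. A_87_P036336 read 1521 in R80C cells and 1768 in H2A.Z.1 cells, a difference of -0.19. A_87_P092781 read 618 in R80C cells and 720.2 in H2A.Z.1 cells, also a difference of -0.19. The probes thus differed from each other by 0.0041 (log2), and the gene's mean of -0.19 stood for a 1.14-fold lower signal in R80C cells. By size this placed SYK at rank 710 of 4326 named genes, with 16.4% of them larger. In the brighter part of the genes (2163 with a mean scaled signal no lower than the median), 115 (5.32%) differed more. Many of these read well above SYK (mean scaled signal -0.012 in log2), where the spread of differences was narrower. That share therefore does not stand for genes of SYK's own signal. Of the 2776 named genes with several measured probes, 324 (11.7%) differed more. Every probe lay at or below the higher of the SYK differences in 126 (4.54%) of these 2776, and in 25 (1.56%) of the 1604 brighter ones. That cutoff was SYK's own value, and genes with more than 2 probes meet it less readily, so the last 2 shares do not show how rare SYK is. The software's error for each SYK difference was 0.20, so neither probe on its own lay outside it. The software assigned 10% of signal as error to each SYK spot on both arrays, and about as much to most other member probes. It is thus not a spread measured between spots. With raw signal minus local background SYK stood at -0.090, where the median of all named genes was 0.11.

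BTK, the Tec family kinase that activates PLCG2, was close to equal. A_87_P036862 read 9971 in R80C cells and 9498 in H2A.Z.1 cells, a difference of 0.10. A_87_P243948 read 626.5 in R80C cells and 619.9 in H2A.Z.1 cells, a difference of 0.046. The mean of 0.073 was a 1.05-fold higher signal in R80C cells, and 49.8% of all named genes differed more. Over the alternatives BTK ranged from 0.041 to 0.15, always above 0.

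The adaptors that could be read differed little. PIK3AP1, which links the receptor to phosphoinositide 3-kinase, was read by 3 probes. Their signals were 7342, 3113 and 153.1 in R80C cells, against 7192, 3108 and 152.5 in H2A.Z.1 cells. The differences of 0.060, 0.033 and 0.036 lay within 0.028 of each other. GRB2, which connects phosphorylated receptors to the Ras exchange factor SOS, read 3277 in R80C cells and 3214 in H2A.Z.1 cells at A_87_P009495. At A_87_P272908 it read 2858 in R80C cells and 2736 in H2A.Z.1 cells. The differences were 0.058 and 0.093, with a mean of 0.076. All 5 adaptor probes were higher in R80C cells, where 55.5% of all named genes lay above 0. They were higher by less than the SD between probes over all genes (0.094), while 3 of them exceeded that SD over the brighter genes (0.051). Over the alternatives PIK3AP1 ranged from 0.023 to 0.15 and GRB2 from 0.033 to 0.14.

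CBL, a ubiquitin ligase that ends signalling by marking active kinases for breakdown, was read close to background. Its only probe read 26.95 in R80C cells and 28.06 in H2A.Z.1 cells, which was 4.64 and 4.04 times the lowest signal well above background on each array. The raw spots read 59 in R80C cells and 62.5 in H2A.Z.1 cells, over a local background of 29 and 30. Its difference of -0.028 was small against the software's error of 0.23, and the sign turned under 2 of 11 alternatives (array median scaling and raw signal minus local background).

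JCHAIN, whose product joins immunoglobulin M and A into polymers and is no part of the signalling chain, showed the widest difference of the 7. Its only probe, A_87_P038186, read 4746 in R80C cells and 6780 in H2A.Z.1 cells. The raw spots read 4505 and 6547, over a local background of 31 and 30.5, so the gap was present before background correction and detrending. The difference was -0.48, a 1.40-fold lower signal in R80C cells. It was the only member probe of 15 that lay beyond the software's error of its difference (0.20), where 16.2% of all measured spots did. That error again came from 10% of signal assigned to the spot on each array, not from a measured spread. It also lay beyond 2 such errors, as did 3.90% of all measured spots. The 55 measured spots within 4 rows and columns of it on the slide had a median difference of 0.013, with quartiles at -0.12 and 0.079.

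The size of the JCHAIN difference stood out more against bright genes than against all genes. Over all 4326 named genes 3.03% differed more, and over the 1550 named genes read by 1 probe 72 (4.65%) did. Of the 2163 brighter genes 5 (0.231%) differed more. These were CMSS1, ALDH4A1, ANXA11, BAK1 and GRAPL, named after their values were seen, all lower in R80C cells. Over the 2163 genes 1.25% were at least 1.2-fold lower in R80C cells and 0.832% at least 1.2-fold higher. These genes ranged widely in signal, so the shares do not stand for genes of JCHAIN's own signal (mean scaled signal 2.43 in log2). ALDH4A1 (0.11), BAK1 (0.14) and ANXA11 (0.57) read below JCHAIN, and CMSS1 (2.67) above it. As JCHAIN rests on 1 probe, no other probe of the gene could be set beside it.

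**Figure D2:**
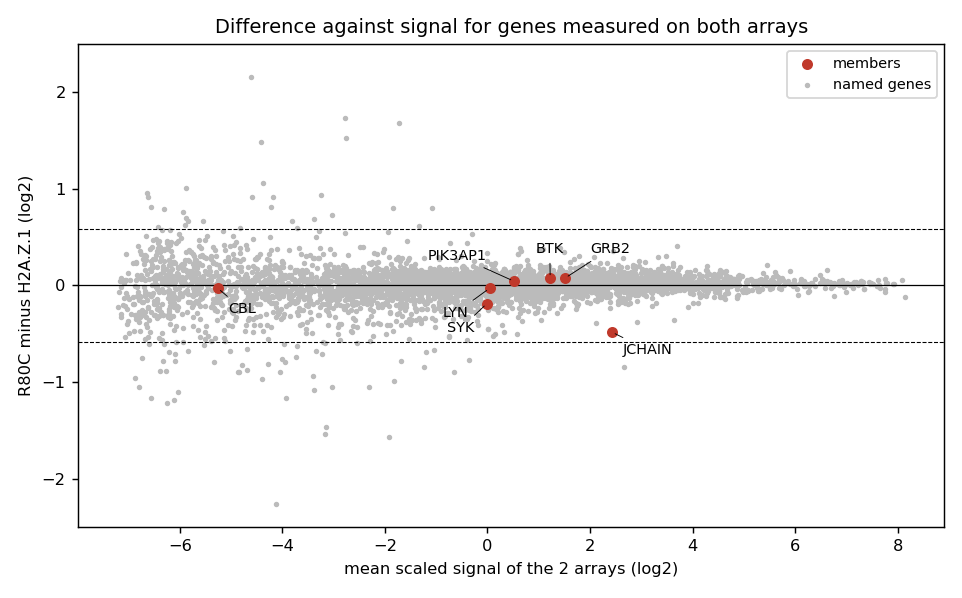
Difference R80C minus H2A.Z.1 (log2) against the mean scaled signal of both arrays (log2) for the 4326 named genes measured on both arrays (grey) and the 7 listed genes with a probe (red), with dashed lines at 1.5-fold. The spread of the grey points narrows with signal; JCHAIN at -0.48 lies under the band of genes of like signal but within the dashed lines, and the other 6 lie within the band.

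The rest of the pathway was read from 8 lists of 175 further genes, of which 90 had a named probe and 82 were measured on both arrays. Their median difference was -0.00035, with 41 above 0 and 41 below. Over all named genes the median was 0.013, with 55.5% above 0 and 44.5% below. None reached 1.5-fold. At 1.2-fold 1 was higher and 6 were lower in R80C cells, together 8.54% of the 82, against 10.1% of all named genes. Named genes at or above the median signal were that far apart less often (0.832% higher and 1.25% lower), so this comparison depends on signal.

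Receptor chains and co-receptors held closest to 0. All 7 measured genes lay between -0.085 and 0.074. PTPRC, the CD45 phosphatase that keeps Src family kinases ready, stood at -0.085, and CD72, an inhibitory co-receptor, at -0.065. CD81, a tetraspanin of the cell membrane, stood at 0.074.

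Among kinases related to LYN, SYK and BTK, 5 were measured, and 1 was 1.2-fold lower. TEC, a close relative of BTK, read 17.7 in R80C cells and 24.84 in H2A.Z.1 cells at its measured probe, a difference of -0.46. Its second probe read 5.62 in R80C cells, not well above background, and 10.97 in H2A.Z.1 cells. After normexp background correction with quantile normalization the TEC difference was -0.042. FYN (-0.22) and FGR (0.24), both Src family kinases, read between 13.86 and 22.35 at their measured probes in R80C cells, and stood at -0.065 and 0.075 after the same correction. CSK, which restrains LYN by phosphorylating its tail, read between 268.2 and 895.6 at its 4 probes in R80C cells and between 263.2 and 883.9 in H2A.Z.1 cells, a mean difference of 0.028.

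Of the 8 other adaptors measured, 3 were at least 1.2-fold lower in R80C cells and 1 higher, where 6.01% of all named genes were that much lower and 4.05% that much higher. HCLS1, an actin-binding substrate of LYN and SYK, read 8208 and 1929 in R80C cells, against 11405 and 2479 in H2A.Z.1 cells. Its probes differed by -0.44 and -0.33, a mean of -0.39. GRAPL, named as a relative of the adaptor GRAP, read 1534 and 791.2 in R80C cells, against 2177 and 1141 in H2A.Z.1 cells, a mean difference of -0.49. SLA, a Src-like adaptor that damps antigen receptor signalling, read 125.1 and 108.4 in R80C cells, against 191.6 and 149.1 in H2A.Z.1 cells, a mean of -0.51 (-0.33 after normexp with quantile normalization). Both probes of each of these genes were lower in R80C cells. NCK1, which couples phosphorylated receptors to actin, leaned the other way, with 2786 and 85.63 in R80C cells against 2318 and 72.55 in H2A.Z.1 cells, a mean of 0.28.

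Negative regulators other than CBL included DGKZ, which removes the second messenger diacylglycerol. Its brightest probe read 3076 in R80C cells and 4964 in H2A.Z.1 cells, a difference of -0.66, while its dimmer probes, at 25.42 and 14.7 in R80C cells against 33.41 and 17.41 in H2A.Z.1 cells, differed by -0.36 and -0.21. The mean was -0.41, and -0.24 after normexp with quantile normalization. SPRY2, an inhibitor of Ras signalling, stood at -0.20 over 2 probes. PTPN6, the SHP-1 phosphatase that acts with inhibitory co-receptors, stood at -0.18 over 3 probes, which lay between -0.19 and -0.16. PTPN2 stood at 0.0083.

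As means over their probes, downstream genes stayed within 1.2-fold with 1 exception, where 10.1% of all named genes were at least 1.2-fold apart. Over named genes at or above the median signal, 1.25% were that much lower in R80C cells and 0.832% higher, so the 10.1% does not stand for brighter genes. Of 14 lipid and calcium genes the farthest from 0 were STIM1, the calcium sensor of the endoplasmic reticulum, at -0.15, PIK3CB at 0.11 and PIK3CD, the phosphoinositide 3-kinase subunit of white blood cells, at -0.10 over 5 probes. The STIM1 mean joined a bright probe, at 2484 in R80C cells and 3080 in H2A.Z.1 cells (-0.28), with a dim probe at 8.45 in R80C cells and 8.71 in H2A.Z.1 cells (-0.013). CALM2, a gene of the calcium sensor calmodulin, read 16325 and 9862 in R80C cells, against 16723 and 10682 in H2A.Z.1 cells. In the Ras, Rac and MAP kinase arm HRAS read 366.1 in R80C cells and 472.1 in H2A.Z.1 cells at its only probe, a difference of -0.34. RAC2, a GTPase of blood cells, stood at -0.19, and VAV2, an exchange factor for Rac, at 0.17 over 3 probes, while RHOA, a GTPase of the actin skeleton, stood at -0.015 over 5. In the protein kinase C to NF-kB arm all 9 measured genes lay between -0.16 and 0.070, with NFKBIA, the inhibitor of NF-kB, at -0.16, NFKB2 at -0.092 (0.020 after normexp with quantile normalization) and BCL10 at 0.070.

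**Figure D3:**
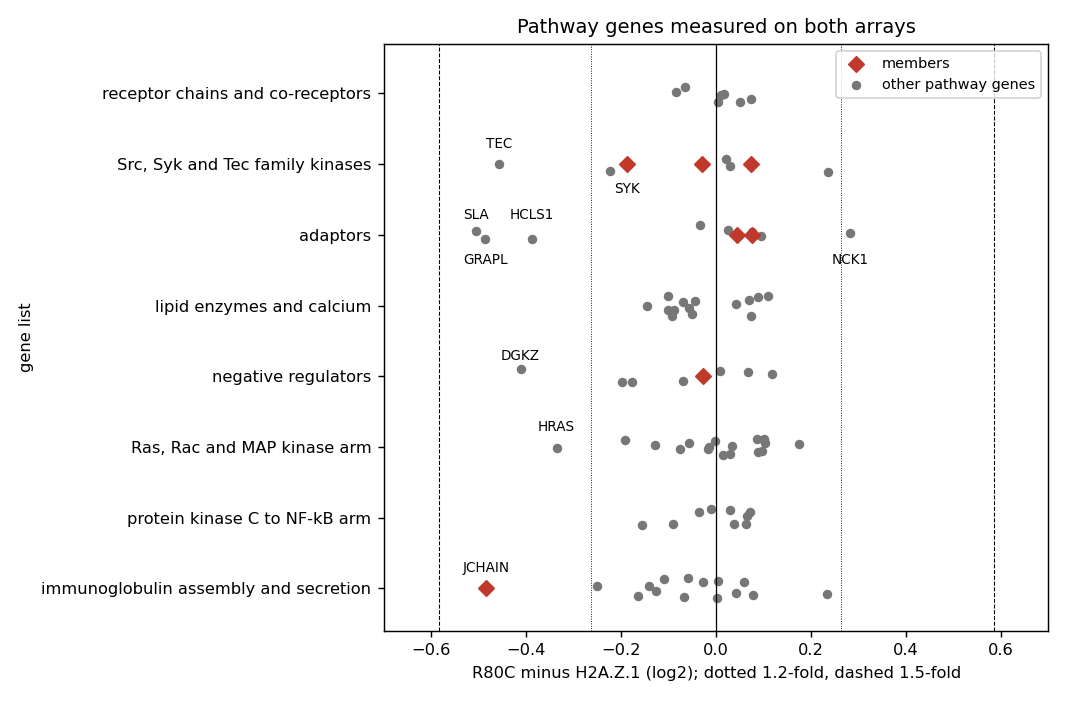
Difference R80C minus H2A.Z.1 (log2, horizontal axis) of each pathway gene measured on both arrays, 1 row per list, with the members as red diamonds and the other genes in grey, jittered vertically. JCHAIN, SLA, GRAPL, TEC, DGKZ, HCLS1 and HRAS lie left of the dotted 1.2-fold line and NCK1 right of it, and no gene crosses the dashed 1.5-fold line.

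Genes that act with JCHAIN in making and secreting immunoglobulin were given the same reading. Of 14 measured genes other than JCHAIN none reached 1.2-fold, where 10.1% of all named genes did. Among named genes at or above the median signal only 1.25% were that much lower in R80C cells and 0.832% that much higher. Finding none among 14 therefore does not set this list apart. Of these 14, 6 lay above 0 and 8 below, where 44.5% of all named genes lay below, and the median was -0.043. IRF4, a transcription factor of plasma cell differentiation, read 16609 and 142.9 in R80C cells, against 19583 and 179.3 in H2A.Z.1 cells, a mean difference of -0.25. XBP1, which drives expansion of the secretory pathway, read 26460 and 23242 in R80C cells, against 30318 and 25757 in H2A.Z.1 cells, a mean of -0.14. TXNDC5, a disulphide isomerase, stood at -0.17 over 3 probes. ERO1A, an oxidase that supplies disulphide bonds, stood at 0.23 on 1 probe. PIGR, the receptor that carries polymeric immunoglobulin across epithelia, read 42.7 in R80C cells and 47.06 in H2A.Z.1 cells.

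Markers of other blood cells were set beside these values. Of 11 T and NK cell genes with a named probe 7 were measured on both arrays, and the sum over the list of each gene's brightest probe was 64928 in R80C cells and 72291 in H2A.Z.1 cells. CD3D, a signalling chain of the T cell antigen receptor, made up most of that sum, with 63969 in R80C cells and 70974 in H2A.Z.1 cells at its brighter probe. CD3E read 162.5 in R80C cells and 613.2 in H2A.Z.1 cells at its brightest probe, and differed by -1.54 over 2 measured probes (-1.0 after normexp with quantile normalization). CD5 stood at 0.50 (0.29 after normexp with quantile normalization), with 0.80 and 0.20 at its 2 probes. CD8A stood at 0.084 on 1 measured probe of 3, while CD4, GATA3, CTLA4 and ICOS were not well above background on either array. Of 11 myeloid genes 8 were measured, with a sum of 8789 in R80C cells and 11142 in H2A.Z.1 cells. At 1.2-fold 4 of them were lower and 1 higher in R80C cells, against 6.01% and 4.05% of all named genes. TIMD4, CSF3R and CEBPA were dim at their only measured probes, with 24.4, 10.21 and 19.32 in R80C cells and 36.36, 15.18 and 13.69 in H2A.Z.1 cells. The genes 1.2-fold apart included TIMD4 (-0.55), CSF3R (-0.54), CYBB (-0.48) and CEBPA (0.53). After normexp with quantile normalization these stood at -0.24, -0.13, -0.26 and 0.059, under 1.2-fold, and CTSS at -0.27. CTSS, a protease of antigen-presenting cells, read 8249 in R80C cells and 10481 in H2A.Z.1 cells at its brighter probe, and CD14 and MARCO were not well above background on either array. Of 7 erythroid and thrombocyte genes 6 were measured, with HBBA at 0.25 and HBE at -0.11, and a sum of 1046 in R80C cells and 994 in H2A.Z.1 cells. The part of these markers in the JCHAIN, SYK and adaptor differences was not tested.

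**Figure D4:**
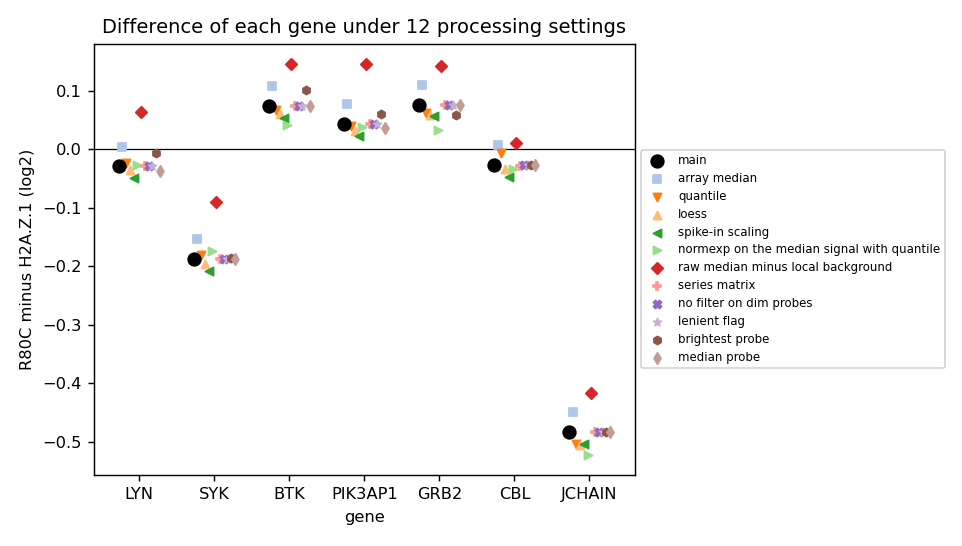
Difference R80C minus H2A.Z.1 (log2, vertical axis) of each of the 7 genes under the main setting (large black point) and 11 processing alternatives (small markers). JCHAIN stays between -0.52 and -0.42 and SYK between -0.21 and -0.090, BTK, PIK3AP1 and GRB2 stay above 0, and LYN and CBL cross 0.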

How the data were processed

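Total RNA of 1 DT40 culture per group was hybridised as Cy3-labelled cRNA to Agilent arrays read in 1 colour, per the labels' protocols. The authors deposited spot intensity on a linear scale made, per the file headers, by Agilent Feature Extraction version 11.5.1.1 with its protocol GE1_1105_Oct12, with 0 or 1 flags per spot and other background and error columns. The series matrix deposited by the authors also holds linear intensity, with its basis not stated. It equalled the processed intensity times about 1.51 (R80C) and 1.50 (H2A.Z.1), with column medians of 125.1 and 129.9, uncentred and not log-transformed. How that factor was chosen stays unknown.

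Spots of a probe were averaged in log2 and scaled on the array's 75th percentile over probes. A gene's difference is the mean over its measured probes. The error of a difference combines the software's errors of both spots. Of 13060 probes with a RefSeq accession 11935 matched a gene of the GRCg7b table and 1125 did not, and probes with other accessions stayed unnamed. Since the arrays' grid is of build galGal3, no coordinates are given. Genes were named as follows: every member, and in each list the 3 other genes farthest from 0, any at least 1.5-fold different and the brightest. PAX5, NCK1, PIGR, CYBB, the markers not above background and the chromosome neighbours fall outside this rule and were named after their values were seen. List genes were matched by exact symbol, and some of the genes this rule takes are not reported here. Members and lists were chosen with earlier results of these data known. The number of arrays limits the precision. Tools were Python 3.11.15, pandas 2.3.3, numpy 2.4.6, R 4.3.3 and limma 3.58.1. The scaling was tested on simulated data made from the H2A.Z.1 array with a constant shift, known differences and equal noise at every signal. That setting lacks the wider spread of dim genes, so it does not show how well the scaling suits these 2 arrays. The scanner files gave no mean spot signal column, so normexp (offset 50) was run on the median signal, an alternative added after seeing the data, as was the raw signal minus local background. The others were array median, quantile, loess and spike-in scaling, the series matrix, 2 filters on dim probes and 2 rules for several probes.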

Additional observations from a re-analysis of the deposited data

How the results depend on the processing

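No paired analysis was possible because each group has 1 array, so no replicate could be left out either. Of 77 values of the 7 genes under 11 alternatives, 2 moved by more than the SD between probes of a gene (0.094). Both came with raw signal minus local background, chosen after seeing the data, which put SYK at -0.090 and PIK3AP1 at 0.15 and the median of all named genes at 0.11. Relative to that median SYK stood at -0.20, as in the main setting (-0.20). Several alternatives could not move the 7 genes that far. The filters on dim probes left them unchanged, as all their probes were already measured, and the series matrix is nearly a rescaled copy. Array median and spike-in scaling shifted every gene alike, by 0.034 and -0.020. The rules for several probes cannot change a gene with 1 probe. The count of 2 in 77 therefore does not measure how steady the values are. LYN and CBL changed sign with array median scaling (0.0045 and 0.0063) and with raw signal minus local background (0.063 and 0.0098). Each of these values lay below the median of all named genes in its setting (0.047 and 0.11). In the main setting LYN and CBL also lay below that median (0.013). JCHAIN ranged from -0.52 to -0.42. The number of the 7 genes below 0 was 4 in the main setting, and 2 both with array median scaling and with raw signal minus local background. Raw signal minus local background also moved the median of the 82 pathway genes to 0.099, and the share of all named genes above 0 to 81.4%, against 55.5% in the main setting and 67.2% with array median scaling. The number of named genes at least 1.5-fold apart was 84 in the main setting, 22 after normexp with quantile normalization, 306 with no filter on dim probes and 278 with the lenient detection flag. Of pathway genes, 0 were 1.5-fold apart in the main setting, 1 with the brightest probe (DGKZ at -0.66), 2 with the lenient flag (TEC at -0.70 and CD38 at 0.60) and 3 with no filter (also AKT1 at -0.91). The filter alternatives admit dim probes by construction. The cause of the other shifts was not tested. At the signal of CBL, TEC and FYN, closeness to background limits what a difference can show.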

Other observations

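The nearest measured named genes on the chromosomes were read around each member, up to 2 on either side, in the gene order of the GRCg7b table. Of 26 such neighbours, 6 were at least 1.2-fold apart, against 10.1% of all named genes, and their median was -0.053. All 6 were read by 1 probe, while the 10.1% also covers genes with several probes. Around CBL they were OAF at 1.74 and THY1 at -0.31, with 13 and 7 other genes between. Around LYN they were PLAG1 at -0.46 and MOS at -0.30, with 5 and 4 between. The others were LGALS1B at 0.60 around JCHAIN and NFIL3 at -0.49 around SYK. DCK, a nucleoside kinase gene next after JCHAIN among measured genes with 5 other genes between, read a mean difference of 0.013 over 3 probes. On the other side, LGALS1B, a galectin gene with 11 genes between, was read at 10.7 in R80C cells and 7.23 in H2A.Z.1 cells. Around SYK, AUH (1 gene between) stood at -0.18 over 2 probes. GADD45G, a stress response gene on the other side (5 genes between), stood at 0.18 over 2 probes. Past AUH lay NFIL3, a transcription factor gene with 3 genes between it and SYK. It stood at -0.49 on 1 probe, with a signal of 10.9 in R80C cells and 15.5 in H2A.Z.1 cells.

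Among B cell transcription factor genes, EBF1, which acts upstream of PAX5, was the 1 of 12 measured B cell genes at least 1.2-fold apart. That size was reached by 10.1% of all named genes, and by fewer at or above the median signal (1.25% lower and 0.832% higher). EBF1 read 772.8 and 208.2 in R80C cells, against 663.1 and 170.3 in H2A.Z.1 cells, differences of 0.25 and 0.32.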
